A study of Danio rerio with 14 samples.

Results

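The zebrafish amino acid transport genes examined were slc1a4, slc7a3a, slc3a2a and slc3a2b. They were taken as every probe set of the array that its annotation assigns to 1 gene symbol among these genes, which gave 1 probe set for each gene, so 4 of the 15617 probe sets on the array and 4 of the 8793 genes with a probe set of their own. The genes were chosen with the response to ethanol in the same embryos known, so the differences between ethanol treated and control embryos below are descriptions. Where a threshold set over all probe sets is applied to these genes, the outcome is not independent evidence of a change. Gene expression had been measured in 14 pools of about 20 whole zebrafish embryos of the TL strain, all harvested at 8 hours post fertilization (hpf), which is mid-gastrulation. The 7 ethanol pools had been kept in embryo medium with 100 mM ethanol (0.6% by volume) from 2 hpf, a 6 h exposure, and the 7 control pools came from the same embryo batches and stayed in medium without ethanol. Each batch provided 1 ethanol and 1 control pool and was an independent experiment on the offspring of a single breeding pair, and the batches are numbered 1 to 6 and 8. The paper reported slowed epiboly under this ethanol treatment, so pools of equal age need not be equal in developmental progress. The part of this delay in the differences below was not tested. A pool averages over its embryos, and differences among embryos of a pool were not measured.

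Amino acid transporters of the solute carrier (SLC) families move amino acids across the cell membrane, each family with its own range of substrates. Mammalian SLC1A4 (ASCT1) exchanges small neutral amino acids such as alanine, serine and cysteine, and mammalian SLC7A3 carries the cationic amino acids arginine and lysine. SLC3A2, also called 4F2hc, carries no amino acid by itself: as a heavy chain it binds light chains of the SLC7 family and brings them to the cell surface, and zebrafish have the paralogs slc3a2a and slc3a2b. In mammalian cells, shortage of amino acids raises transcription of many transporter and amino acid synthesis genes through the factor ATF4, and imported amino acids are sensed by the kinase complex mTORC1.

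The values are MAS5 signals, a linear measure of hybridization for each probe set, scaled to the same average on every array. They compare pools for 1 probe set and do not compare levels between genes. The median signal of an array lay between 218.7 and 295.7 in ethanol pools and between 214.3 and 281.5 in control pools, and a signal of at least 200 was reached by 8000 to 9262 probe sets in ethanol pools and 7943 to 9156 in control pools. A probe set entered the fit when 3 or more of the 7 ethanol arrays, or of the 7 control arrays, gave a signal of 200 or above, and 9240 probe sets did. All 4 transporter probe sets passed this minimum, but slc1a4 passed it through the ethanol pools, with 7 of 7 ethanol pools and 2 of 7 control pools at or above 200. In whole embryos, fewer cells of a type and less RNA per cell cannot be told apart.

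The neutral amino acid exchanger slc1a4 had the largest difference of the 4 genes. Its signal ranged from 343.3 to 830.2 in ethanol pools, with a median of 516.3, against 53.33 to 237.6 in control pools, with a median of 180. The groups did not overlap: the lowest ethanol pool lay above the highest control pool. The mean signal was 537.9 ± 197.8 in ethanol pools and 162.1 ± 68.6 in control pools (SD, n = 7 each). In the fit with embryo batch, the log2 change, ethanol minus control, was 1.81 (SE 0.31), a 3.5-fold higher signal with a 95% confidence interval from 1.15 to 2.46 on the log2 scale.

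The difference in slc1a4 was present in every batch, but its size varied widely. In batch 5 the signal was 830.2 in the ethanol pool and 83.91 in the control pool, and in batch 6 it was 516.3 in the ethanol pool and 53.33 in the control pool. The ratios, 9.89 and 9.68, were taken over the lowest control signals, both far under 200, and with each signal under 200 set to 200 they were 4.15 in batch 5 and 2.58 in batch 6. On that basis batch 5 still had the highest ratio, while batch 6 lay below batch 8 (3.24) and batch 4 (2.82). In batch 3 the signal was 343.3 in the ethanol pool and 223 in the control pool, the smallest difference at 1.54-fold. The remaining 4 batches lay between 1.97-fold and 3.24-fold on the signals as deposited. Most control signals, 5 of 7, were under the minimum of 200, and the fold depended on how low signals were treated. With 100 added to each signal before log2, the log2 change was 1.27, and with each signal under 200 set to 200 it was 1.29.

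**Figure D1:**
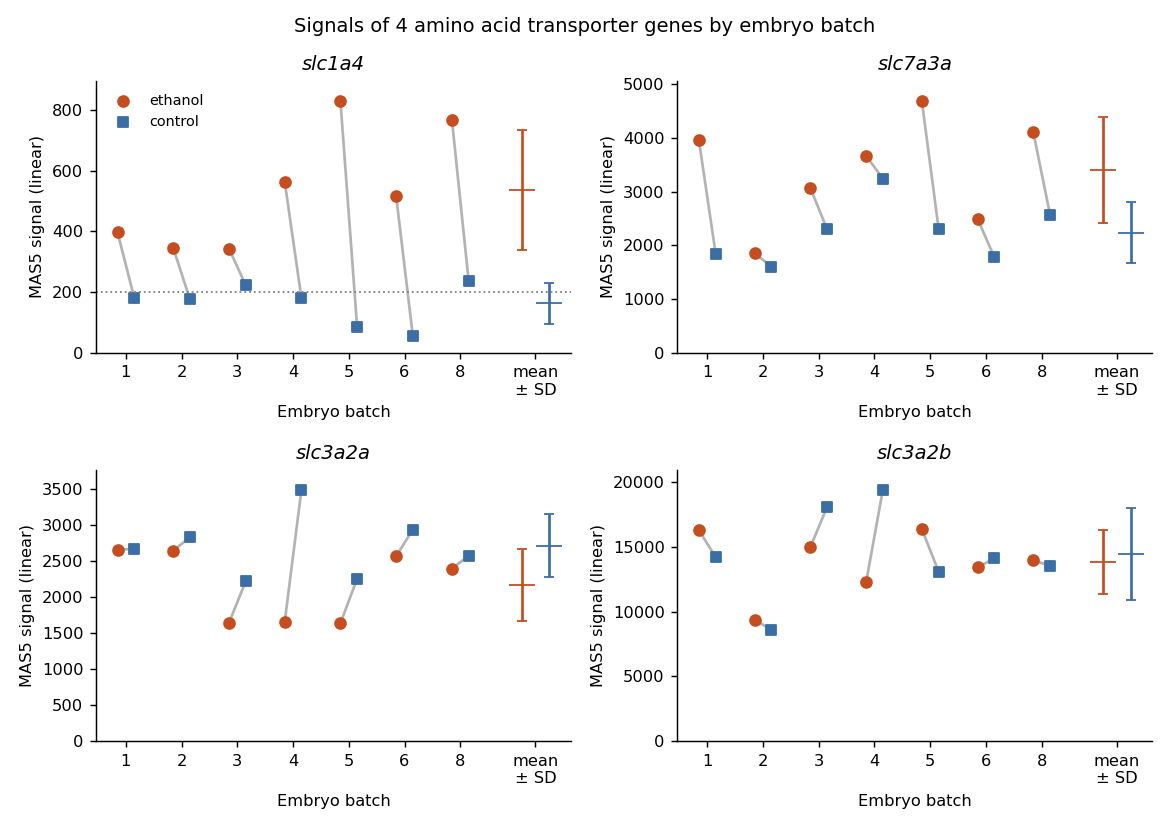
MAS5 signal (linear scale, vertical axis starting at 0) of slc1a4, slc7a3a, slc3a2a and slc3a2b in each embryo batch (horizontal axis), with ethanol pools as circles on the left, control pools as squares on the right and a grey line joining the pools of a batch; the bars at the right give mean ± SD over 7 pools, and the dotted line in the slc1a4 panel marks the signal minimum of 200. All ethanol pools of slc1a4 lie above all its control pools, the ethanol pool of slc7a3a is above its control pool in all 7 batches, that of slc3a2a is below its control pool in all 7, and the pairs of slc3a2b go both ways.

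The cationic amino acid transporter slc7a3a was also higher in ethanol treated embryos, by a smaller factor. Its signal ranged from 1851 to 4684 in ethanol pools, with a median of 3666, against 1600 to 3242 in control pools, with a median of 2297. The groups overlapped, and 4 ethanol pools lay above the highest control pool. The mean signal was 3402 ± 987.9 in ethanol pools and 2234 ± 563.2 in control pools (SD, n = 7 each), and the log2 change was 0.58 (SE 0.11), or 1.499-fold, with a 95% interval from 0.35 to 0.82. The ethanol pool was higher in 7 of 7 batches. Its signal was 3951 in the ethanol pool of batch 1 against 1842 in the control pool, and 4684 in the ethanol pool of batch 5 against 2310 in the control pool, both differences above 2-fold. In batch 4, where the control signal of slc7a3a was highest, the signal was 3666 in the ethanol pool and 3242 in the control pool, a ratio of 1.13. Beside slc1a4, batch 1 gave like ratios, 2.19 for slc1a4 and 2.15 for slc7a3a, and with slc1a4 signals under 200 set to 200 that of slc1a4 was 1.99, below that of slc7a3a.

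Neither heavy chain gene was higher in ethanol treated embryos by the fit. The signal of slc3a2a ranged from 1640 to 2659 in ethanol pools, with a median of 2399, against 2221 to 3492 in control pools, with a median of 2674. The groups overlapped, and 3 ethanol pools, those of batches 3, 4 and 5, lay below the lowest control pool. The log2 change of slc3a2a was −0.34 (SE 0.11), 0.79 times the control signal, with a 95% interval from −0.58 to −0.10. The intervals given for the 4 genes take no account of how the genes were chosen or of the number of probe sets tested. By the threshold for all probe sets given below, slc3a2a was not called lower. The ethanol pool was lower in 7 of 7 batches, but by under 1% in batch 1, where the signal was 2659 in the ethanol pool and 2674 in the control pool. Batch 4 had the largest difference in slc3a2a, with 1658 in the ethanol pool and 3492 in the control pool, and without this batch the log2 change was −0.22.

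The paralog slc3a2b showed no common direction. Its signal ranged from 9386 to 16366 in ethanol pools, with a median of 13948, against 8582 to 19388 in control pools, with a median of 14112. The ethanol pool was higher in 4 batches and lower in 3. The log2 change of slc3a2b was −0.04 (SE 0.09), with a 95% interval from −0.24 to 0.15. Batch 4 again had the lowest ratio, with 12270 in the ethanol pool and 19388 in the control pool, and without this batch the log2 change was 0.06. Within each of the 7 batches the change of slc3a2a lay below that of slc3a2b. A further 5 probe sets of the array name slc3a2b together with 6 calmodulin genes, and they were not attributed to slc3a2b.

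**Figure D2:**
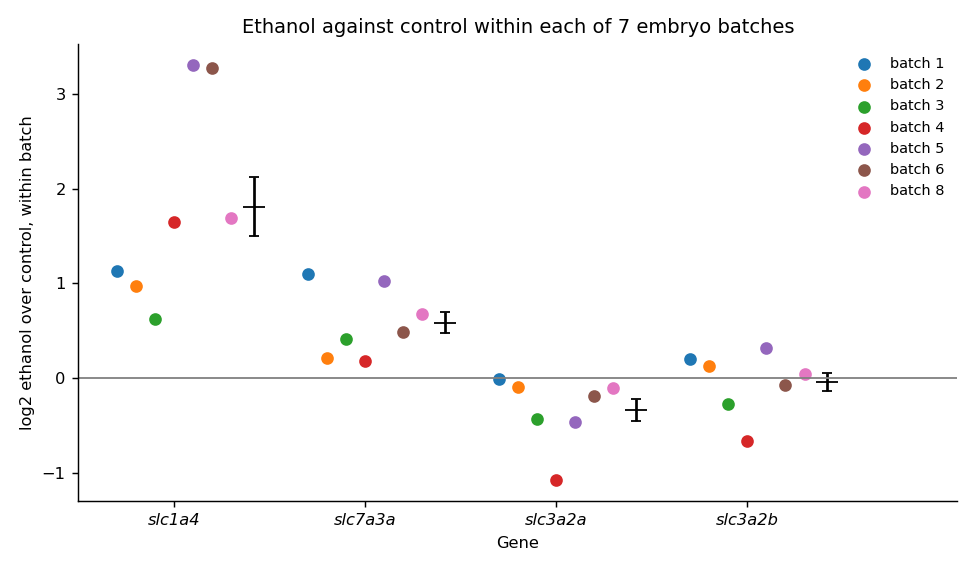
Log2 ratio of ethanol to control signal within each of 7 embryo batches (vertical axis, coloured points) for the 4 transporter genes (horizontal axis), with the fitted log2 change ± SE as a black bar to the right of each gene's points. The points of slc1a4 spread from 0.62 to 3.31 and those of slc7a3a from 0.18 to 1.101, all above 0, while slc3a2a lies between −1.07 and −0.01 and slc3a2b between −0.66 and 0.32, with batch 4 lowest for both heavy chain genes.

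The limma fit over all probe sets called a change where the p adjusted by the Benjamini-Hochberg procedure was 0.10 or less, which 4.36% of tested probe sets met in either direction. Of the 4 genes, slc1a4 and slc7a3a, 2 in number, were called higher, where 2.36% of all tested probe sets were, and 0 of 4 were called lower, where 2.00% were. The ethanol pool was on the same side of the control pool in all 7 batches for 3 of the 4 genes, higher for slc1a4 and slc7a3a and lower for slc3a2a, where 3.15% of all tested probe sets were higher and 2.97% lower in every batch. Of the 4 genes, slc1a4 was the 1 whose groups did not overlap, and the ethanol pools lay above all control pools in 0.249% of tested probe sets. The genes had been chosen on this contrast, and nothing is read from these shares.

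The differences between embryo batches had no part in the choice of the genes and were tested by a moderated F test over the 6 batch coefficients of the same fit. This test uses the same residual variance as the ethanol contrast, so it is not fully independent of the choice. Batch passed the threshold for slc7a3a (F = 6.30, adjusted p = 0.0118) and for slc3a2b (F = 5.38, adjusted p = 0.0216), and not for slc3a2a (F = 2.30, adjusted p = 0.22) or slc1a4 (F = 0.99, adjusted p = 0.619). Batch passed for 2 of the 4 genes and for 22.3% of all tested probe sets. Batch 2 had the lowest signals of both slc7a3a and slc3a2b. The geometric mean of its ethanol and control pools was 1721 for slc7a3a, against 2104 to 3447 in the other batches, and 8975 for slc3a2b, against 13740 to 16453 in the other batches. For both genes the ethanol pool of batch 2 was the lowest of the ethanol pools and the control pool of batch 2 the lowest of the control pools. Both calls rested on this batch, since without it the adjusted p of the batch test was 0.121 for slc7a3a and 0.787 for slc3a2b. For slc3a2a the adjusted p fell to 0.0661 when batch 4 was left out. The 14 arrays were labelled, hybridized and scanned together, and the embryo batches were separate experiments, so genetic and experimental differences between batches cannot be told apart.

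The 4 genes were next set beside the other amino acid transporter genes. Of 67 other genes in a list of amino acid carriers and heavy chains, 17 had a probe set of their own on the array, 9 passed the signal minimum and 8 did not. None of the 9 was called higher or lower by limma, where 2.56% of genes tested were called higher and 2.04% lower, each gene being represented by its brightest probe set. At an unadjusted p under 0.05 there was 1 higher gene, slc38a2, and 1 lower gene, slc38a7, and 0 passed in either direction without moderation of the variances. The median log2 change of the 9 genes was −0.03, beside 0.00 over all 6016 genes tested, with 3 genes above 0 and 6 below.

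Values of the 9 genes lay close to 0 beside those of slc1a4 and slc7a3a. Since slc1a4 and slc7a3a had been chosen with their response to ethanol known, nothing is read from this contrast. The neutral amino acid transporter slc38a2, known in mammals as a carrier that cells increase when amino acids are short, had the highest, a log2 change of 0.30 (SE 0.11, adjusted p = 0.163). Its signal ranged from 1036 to 1613 in ethanol pools, with a median of 1403, against 865.2 to 1376 in control pools, with a median of 1077, and the ethanol pool was higher in 7 of 7 batches. The cationic amino acid transporter slc7a1b, of the same family as slc7a3a, had a log2 change of 0.15 (SE 0.16). The relatives of slc38a2 among the neutral amino acid carriers, slc38a5b and slc38a4, had log2 changes of 0.09 and −0.01. Of the carriers of large neutral amino acids, slc43a2b and slc43a2a had log2 changes of −0.03 and −0.16. Each of these 5 genes, slc7a1b included, was within 1 SE of 0. The log2 change of slc43a1a, of the same family, was −0.17 (SE 0.08, adjusted p = 0.345). At the low end slc38a7, a lysosomal carrier in mammals, had −0.28 (SE 0.12, adjusted p = 0.271), and its dimmer probe set gave −0.36. By their brightest probe sets, 0 of these 9 genes passed the batch test, which 22.3% of all tested probe sets did, and whether this share differs from that of the 4 chosen genes was not tested. A dimmer probe set of slc7a8a, which did not stand for its gene, passed it (adjusted p = 0.0541).

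A heavy chain takes part in amino acid transport only with a light chain. Of 8 light chain genes listed as partners of slc3a2, only slc7a8a and slc7a7 had a probe set of their own on the array. The signal of slc7a8a, a carrier of large and small neutral amino acids, ranged from 5381 to 8278 in ethanol pools, with a median of 7056, against 5573 to 9029 in control pools, with a median of 7737. Its log2 change was −0.09 (SE 0.09, adjusted p = 0.707), with the ethanol pool higher in 2 of 7 batches. The dimmer probe set of slc7a8a went the other way, with a log2 change of 0.10, and also did not pass. Signals of slc7a7 were under 200 in most pools, with 4 of 14 at or above it, and slc7a7 was not tested. The other 6 light chain genes, slc7a5 among them, were not analysed here.

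**Figure D3:**
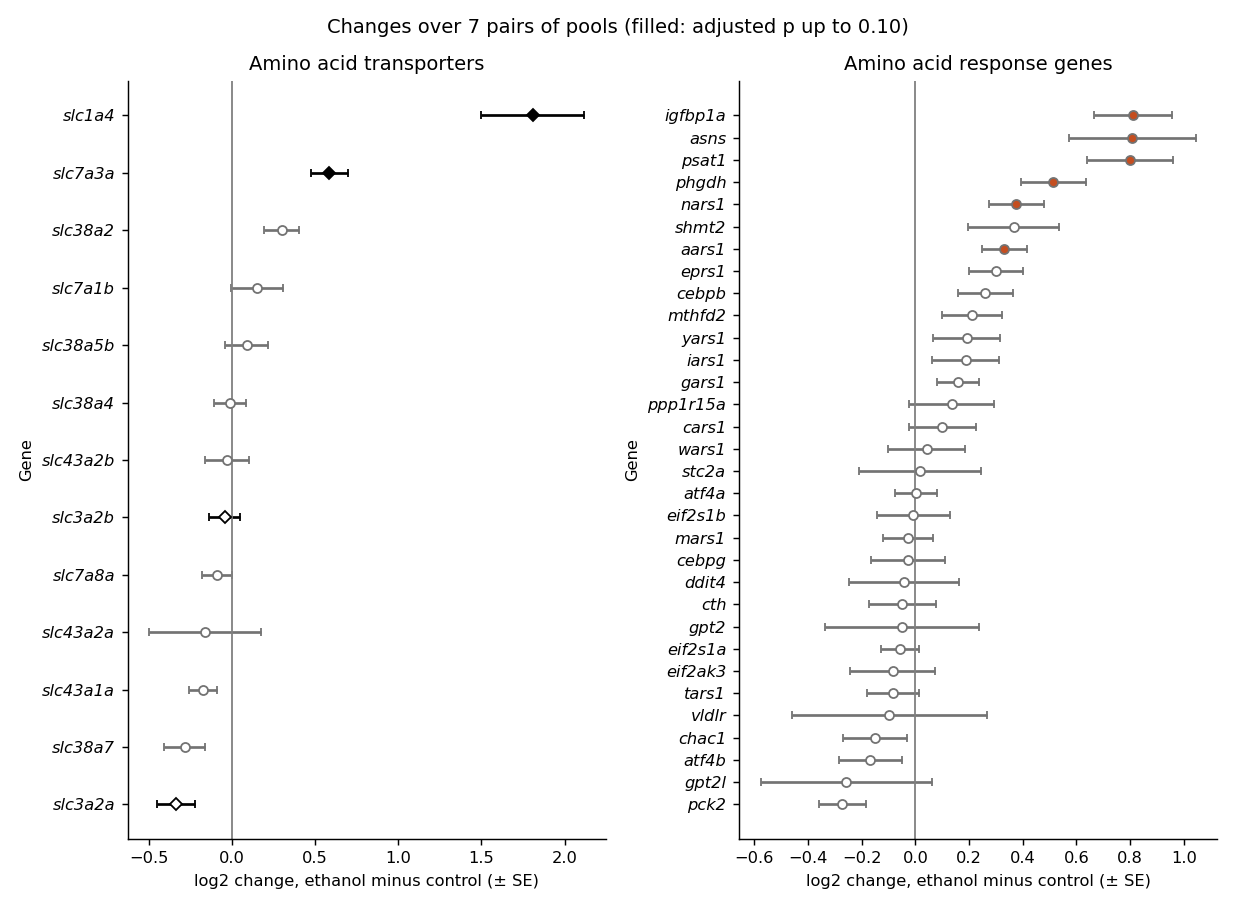
Log2 change, ethanol minus control, ± SE over 7 pairs of pools (horizontal axis) for the 4 chosen genes (diamonds) and the 9 other amino acid transporter genes tested (left, circles), and for the 32 amino acid response genes tested (right), with genes down the vertical axis. Filled symbols passed an adjusted p of 0.10. The genes slc1a4 at 1.81 and slc7a3a at 0.58, chosen with their response to ethanol known, lie above the 9 other transporter genes, which span −0.28 to 0.30. On the right, 6 response genes between 0.33 and 0.81 are filled.

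Genes of the amino acid response, the set that ATF4 and its partners control in mammals together with transporter genes such as SLC3A2, were called higher in part. Of 52 listed genes, 36 were on the array and 32 were tested, and 6 of them (18.8%) were called higher, beside 2.56% of all genes tested, and 0 lower. The list was written with these results known and psat1 was among the genes selected by the study on these samples, so the count is not independent evidence of a direction. The median log2 change of the 32 genes was 0.03, with 18 above 0 and 14 below. At an unadjusted p under 0.05 there were 9 higher and 1 lower, and without moderation of the variances 0 were called in either direction. The count was 2 without batch 5 and 3 without batch 8.

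The 6 genes belong to serine and asparagine synthesis, to the charging of transfer RNAs and to growth factor binding. For psat1, an enzyme of serine synthesis, the signal ranged from 638.3 to 2469 in ethanol pools, with a median of 1326, against 439.9 to 999.2 in control pools, with a median of 730, and the log2 change was 0.80 (SE 0.16, adjusted p = 0.0107). For phgdh, the enzyme of the first step of that pathway, the median was 1934 in ethanol pools and 1532 in control pools, and the log2 change was 0.51 (SE 0.12, adjusted p = 0.0293). Both serine synthesis genes were higher in ethanol pools in 6 of 7 batches. Serine is among the substrates of mammalian SLC1A4, but serine levels and transport were not measured, and a link to slc1a4 was not tested. The asparagine synthetase gene asns had a median signal of 438.3 in ethanol pools and 209.5 in control pools, with a log2 change of 0.81 (SE 0.24, adjusted p = 0.0819). The call for asns was lost without any 1 of batches 2, 3, 4, 5, 6 and 8, where its adjusted p lay between 0.137 and 0.224, and its dimmer probe set gave 0.94 with an adjusted p of 0.193. The binding protein made from igfbp1a holds insulin-like growth factors outside the cell. Its gene had a median of 649.6 in ethanol pools and 406.5 in control pools, with a log2 change of 0.81 (SE 0.14, adjusted p = 0.00447) and the ethanol pool higher in 7 of 7 batches. The aminoacyl-tRNA synthetase genes aars1 and nars1, for alanine and asparagine, had log2 changes of 0.33 (SE 0.08, adjusted p = 0.0393) and 0.38 (SE 0.10, adjusted p = 0.0628), with the ethanol pool higher in 7 and 5 of 7 batches. Some of these calls also rested on single batches: that for phgdh was lost without batch 5 (adjusted p = 0.103), that for aars1 without batch 5 or 8 (0.121 and 0.107), and that for nars1 without batch 2, 4, 5, 6 or 8 (0.103 to 0.189). Those for psat1 and igfbp1a were kept without any 1 batch. Genes that did not pass went both ways, with log2 changes of 0.37 for shmt2, 0.30 for eprs1 and 0.26 for cebpb. The lowest on the list was −0.27 for pck2 (SE 0.09, adjusted p = 0.131). For atf4a, 1 of the zebrafish copies of ATF4, the log2 change was 0.00, and for atf4b it was −0.17. For chac1, a strong target of ATF4 in mammals, it was −0.15. All of these were named after their values were seen, and ATF4 protein was not measured.

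Of 35 listed genes of mTORC1 and its amino acid sensors, 19 were on the array and 14 were tested. By limma 0 of the 14 were called higher, where 2.56% of all genes tested were, and 0 were called lower, where 2.04% were. With 14 genes a count of 0 could not stand apart from these shares, and nothing is read from it. At an unadjusted p under 0.05 there were 1 higher and 0 lower, and 0 were called in either direction without moderation. The 1 gene was eif4ebp3l, which encodes a translation repressor of the 4E-BP family, with a log2 change of 0.22, named after its value was seen, and it was called higher when batch 3 was left out. The median log2 change of the 14 genes was −0.05, and the values ran between −0.22 for flcn and 0.33 for mlst8.

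For each of the 4 genes, the 3 other probe sets of a single gene with the most similar log2 signal over the 14 arrays were identified by Pearson correlation. The arrays share the ethanol treatment, the embryo batches and the MAS5 scaling, so a correlation over them is a description. The similar genes were picked on these arrays, so a high r within 1 treatment follows in part from the choice and is no separate support. For slc7a3a these were the zinc finger protein gene znf395a (r = 0.93, Spearman's rho = 0.91), rimkla (r = 0.91, rho = 0.91), which encodes a ligase that joins glutamate to N-acetylaspartate in mammals, and pik3ip1 (r = 0.91, rho = 0.89), which encodes an inhibitor of phosphoinositide 3-kinase. Their log2 changes with ethanol were 0.47, 0.39 and 0.52, beside 0.58 for slc7a3a. Within each treatment, r with slc7a3a ran from 0.90 to 0.96 over the 7 ethanol pools and from 0.76 to 0.89 over the 7 control pools. All 3 genes were low in batch 2 in both treatments, as slc7a3a was. For slc1a4 the most similar genes were the signalling adaptor gene grb2a (r = 0.89, rho = 0.86), gemin7 (r = 0.88, rho = 0.87), a gene of the complex that assembles spliceosomal particles, and si:dkey-29d8.3 (r = 0.85, rho = 0.85). These correlations with slc1a4 were lower within the ethanol pools, where r lay between 0.31 and 0.52, than over all arrays, and in control pools r lay between 0.57 and 0.87.

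**Figure D4:**
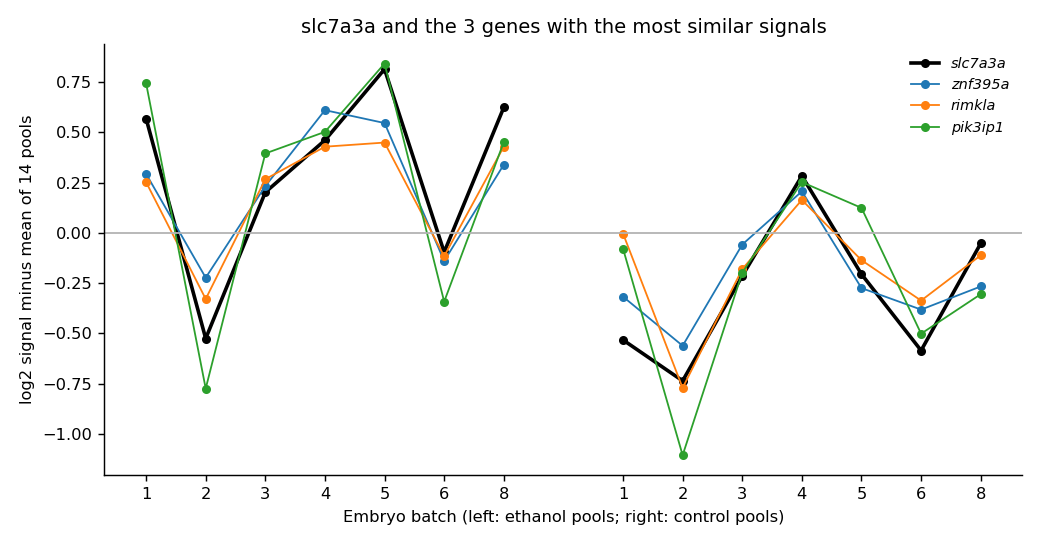
Log2 signal minus its mean over 14 pools (vertical axis) for slc7a3a and for znf395a, rimkla and pik3ip1, in the 7 ethanol pools (left) and the 7 control pools (right) by embryo batch (horizontal axis); lines join the values of 1 gene and the batches have no order. All 4 genes have their lowest value within each treatment in batch 2.

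The genes most similar to the heavy chain genes were picked on the same arrays in the same way. For slc3a2a these were nufip2 (r = 0.90, rho = 0.82), fbp1b (r = 0.89, rho = 0.83), which encodes a fructose bisphosphatase of gluconeogenesis, and larp1b (r = 0.88, rho = 0.76). Their r with slc3a2a lay between 0.91 and 0.95 in ethanol pools and between 0.64 and 0.69 in control pools. For slc3a2b they were the alpha-catenin gene ctnna1 (r = 0.87, rho = 0.77), the forkhead factor gene foxb1a (r = 0.86, rho = 0.85) and slmapb (r = 0.85, rho = 0.78). Within each treatment the correlations with slc3a2b gave r from 0.87 to 0.96 in ethanol pools and from 0.88 to 0.92 in control pools. No gene was among the 3 most similar to more than 1 of the 4 transporter genes. With only 3 taken per gene, this does not show that the 4 genes differ in pattern. Between slc7a3a and slc3a2b themselves r was 0.80 in ethanol pools and 0.73 in control pools. Batch 2 had the lowest signal of both genes in both treatments, which weighs on this r, and r without batch 2 was not computed. The other pairs of the 4 genes had r from −0.45 to 0.68 in ethanol pools and −0.06 to 0.33 in control pools. Over log2 changes within batches, r was 0.71 for slc7a3a with slc3a2b, 0.77 for slc3a2a with slc3a2b, and −0.08 to 0.43 for the other pairs. Batch 4 had the lowest change of slc7a3a, slc3a2a and slc3a2b (0.18, −1.075 and −0.66), which weighs on these r values. They were not computed without batch 4.

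Summed signals of some tissue marker lists and the ratio of 3′ to 5′ signal of control probe sets differed between treatments in the same pools. The summed signal of 16 yolk syncytial layer genes ranged from 90593 to 130207 in ethanol pools, with a median of 101743, against 105407 to 140927 in control pools, with a median of 116974, and was lower in the ethanol pool in 7 of 7 batches, with 8 of 13 tested genes called lower, where 2.04% of all genes tested were. This sum was mostly the signal of apoeb, with a median of 75208 in ethanol pools and 78201 in control pools. In such sums bright probe sets weigh most. The summed signal of 12 enveloping layer genes was higher in the ethanol pool in 6 of 7 batches, and so was that of 7 germ cell genes. Of these, 1 of 12 tested enveloping layer genes and 1 of 4 tested germ cell genes were called higher, and 0 lower. Over all genes tested, 2.56% were called higher. Not every gene followed its sum: krt17, anxa1c and klf17 of the enveloping layer and tdrd7a of germ cells were among those with a lower median in ethanol pools. Of 18 genes of the gastrula germ layers, 17 reached a signal of 200 on every array and 0 were called, and of 12 genes of later differentiated tissue 1 did so. The log2 ratio of 3′ to 5′ signal for the GAPDH control probe sets averaged 1.31 in ethanol pools and −0.52 in control pools. It was higher in the ethanol pool in 6 of 7 batches, but 16 of these 28 signals were under 200. The ratio for acta1 was higher in the ethanol pool in 5 of 7 batches, with 22 of 28 signals under 200. The paper reported high RNA integrity numbers for all samples, taken before labelling. Whether RNA quality differed between the treatments was not tested. The part of these differences in the values of the 4 transporter genes was not tested.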

How the data were processed

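Total RNA of 14 pools of whole zebrafish embryos was labelled with a 3′ IVT kit and hybridized to the Affymetrix Zebrafish Genome Array. The authors deposited MAS5 signals, which are linear intensity values with 1 value per probe set and array, after scaling every array to the same target. The deposited table holds 15617 probe sets, and 115 control probe sets were left out. The study filtered on present calls, which were not used here. In their place a signal minimum of 200 in 3 or more of 7 arrays of either treatment was set, and 6262 probe sets were below it. Depth is not defined for arrays, and their number limits the precision. Probe sets were named from the platform annotation: 10795 carry 1 symbol, 135 several and 4572 none, for 8793 genes. No probe was mapped to a genome here.

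Models of log2 signal had fixed terms for treatment and embryo batch (limma 3.58.1, R 4.3.3, statmod 1.5.0). Variances were moderated by eBayes with a trend, giving 6 residual and 12.74 prior degrees of freedom. Benjamini-Hochberg adjustment ran over all 9240 probe sets tested, with calls at up to 0.10. The batch terms were tested together by a moderated F test. The fit was tested on simulated data. Python 3.11.15 and matplotlib 3.10.9 drew the figures.

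Pools were paired by the replicate number in the sample titles, since the methods describe independent experiments with a treated and an untreated pool in each. Deviations from the treatment means correlated between pools of the same number at 0.11 to 0.38 in all 7 pairs. Between pools of different numbers these correlations ran from −0.28 to 0.28, so the ranges overlapped. Of the 7 ethanol arrays, 6 correlated best with the control array of their own number. Correlations between arrays lay between 0.87 and 0.95, and no columns were identical.

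The genes and the gene lists were chosen with earlier results of these data known. The genes named are all probe sets of the 4 transporter genes, transporters past the threshold and light chains tested, up to 6 genes past the threshold with the largest change on the response and sensing lists, and the 3 probe sets most correlated with each of the 4 genes. The text gives in addition the values of all 9 other transporters tested. A gene on a list is represented by the probe set that was brightest on average among those tested. Alternatives changed the signal minimum, the normalization, the log offset, the batch term and the variance model, and left out each pair, and 1 more, setting signals under 200 to 200, was chosen after seeing the data.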

Additional observations from a re-analysis of the deposited data

Results flagged for a closer look

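Outlying pools were sought in 166 groups of 7 signals, covering the 4 transporter genes, the 67 other tested probe sets of the transporter, response and sensing lists and the 12 probe sets most similar to the 4 genes. In 7 groups, 3 of ethanol pools and 4 of control pools, 1 pool lay far from the other 6, and chance flags about 1 in 20 groups. None of the 4 transporter genes had such a pool. Among ethanol pools, batch 4 had a cebpb signal of 6393, against 2946 to 3972 in the others, and a ddit4 signal of 4055, against 314.6 to 1722, and batch 8 had an atf4a signal of 10040, against 6320 to 7694. Among control pools, batch 5 had an igfbp1a signal of 1032, against 327.1 to 480.9 in the others. Batch 4 had a signal of 1210 for the dimmer probe set of slc38a7, against 587.5 to 822.3 in the other control pools. Batch 1 had a shmt2 signal of 747.1, against 366.8 to 498.2, and batch 8 a yars1 signal of 2160, against 1188 to 1565.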

How the results depend on the processing

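Under 18 alternatives, the log2 change stayed above 0 for slc1a4 (1.27 to 2.00) and slc7a3a (0.50 to 0.65) and below 0 for slc3a2a (−0.39 to −0.22), while slc3a2b was above 0 under 1, without batch 4 (0.06), and otherwise as low as −0.11. The calls were lost for slc1a4 under 2 alternatives, eBayes without trend and no moderation, and for slc7a3a under these and without the replicate block; slc3a2a was called lower under 1, without batch 1.

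Over all probe sets, 218 were called higher and 185 lower. These counts were 25 and 3 without the replicate block, 104 and 73 with the replicate block as a random effect (consensus correlation 0.31), 29 and 14 by eBayes without trend, and 29 and 16 without moderation. Leaving out 1 pair gave 122 to 242 higher and 87 to 241 lower. The batch test could not be fitted without a fixed replicate block. Its adjusted p for slc7a3a was 0.18 without trend, 0.245 without moderation and 0.0033 to 0.121 with 1 pair left out; for slc3a2b these were 0.262, 0.318 and 0.00351 to 0.787. With 1 pair left out it lay between 0.0661 and 0.404 for slc3a2a and between 0.448 and 0.842 for slc1a4.

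On the amino acid response list, 6 genes were called higher, against 0 without the replicate block, 1 without trend, 0 without moderation and 2 to 6 with 1 pair left out. Genes called lower numbered 1 with an offset of 100 and 0 to 1 with 1 pair left out. On the sensing list, 0 to 1 were called higher with 1 pair left out. For list genes, 943 values kept direction and side of the threshold, 34 lost the call, 6 gained one and 0 changed sign while called. The cause of these differences was not tested. Signals near or under 200, as in most control pools for slc1a4, limit how well a fold is known.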
